A study of Mus musculus with 20 samples.

Results

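Wnt signalling was turned up or down in mouse embryonic stem cells that began either undirected or already steered towards mesendoderm, and the size of the Wnt response was compared between those starts for each gene. The cells are those of the mixed single-cell experiment whose tag passed the deposited assignment, whose sorted tag components matched a well of the design table, and whose well held at least 5 such cells. They number 4861 cells in 142 wells, out of 27146 cells and 560 designed populations in the 3 single-cell experiments of the series. A tag here is a set of barcodelets, short RNAs transfected into a well before its cells are pooled with all others, so that each cell carries its treatment into the sequencing library. For each gene a Wnt effect is the log2 change from Wnt minus to Wnt plus wells, averaged over the other pathways. The difference is the Wnt effect after the mesendoderm start less the Wnt effect after the undirected start, and a positive difference means a more positive response after the mesendoderm start.

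All wells held the 129P2/OlaHsd embryonic stem cell line, withdrawn from its maintenance inhibitors and moved into differentiation medium. Undirected wells then received every combination of retinoic acid (RA), Wnt, Tgfb, Bmp and Fgf signalling, each set to plus or minus, for 24 h, with 2 wells per combination. Mesendoderm wells received the same combinations, but only after 24 h with Fgf2, Activin A, Dorsomorphin, CD 2665 and GSK3 inhibitor XV. A GSK3 inhibitor activates Wnt signalling, so the mesendoderm wells had met a Wnt activator before the comparison began. The other agents of that day, Dorsomorphin and CD 2665 among them, were likewise met beforehand by the mesendoderm wells alone. Their part in the differences, those of RA-responsive genes included, was not tested. Control wells of either start received no combination. The compounds behind plus and minus are not named in the mixed design table used here. In the germ layer experiment, used below for comparison, Wnt plus was a GSK3 inhibitor and Wnt minus was IWR1, which stabilises the complex that degrades β-catenin. The groups were 32 undirected Wnt minus wells, 30 undirected Wnt plus wells, 32 mesendoderm wells at each Wnt level, and 8 control wells per start. The 2 wells left out, with 4 cells each, were both wells of 1 undirected combination (RA, Wnt and Bmp plus, Fgf and Tgfb minus). Start state and the additional day of treatment cannot be told apart.

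Wells held 101140 to 2119355 UMIs (unique molecules counted). Undirected Wnt plus wells were the smallest, with 5 to 29 cells (median 14), against 9 to 64 (median 30.5) in undirected Wnt minus wells and 8 to 97 (median 37) in mesendoderm Wnt plus wells. UMIs per cell differed little, with group medians over wells from 18610 to 20520. Because counts were summed over the cells of a well, fewer cells of a type and less RNA per cell cannot be told apart. All wells were pooled into 1 library, and nothing in the labels says that wells came from separate cultures, so p-values measure the spread between these wells.

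The start label was checked in control wells, where 753 of 8791 genes differed between starts (8.57%), 378 higher (4.3%) and 375 lower (4.27%) after the mesendoderm start. T, the Brachyury factor of the primitive streak, stood higher after the mesendoderm start by a log2 of 1.75 ± 0.37 (SE; adjusted p = 0.000339), and the streak growth factor Fgf8 by 2.39 ± 0.44 (adjusted p = 1.61e-05). Eomes, Mixl1 and Wnt3 did not pass the test there (0.63 ± 0.43, adjusted p = 0.423, 0.44 ± 0.54, adjusted p = 0.718, and 0.89 ± 0.35, adjusted p = 0.0958). Gsc, Lhx1 and Foxa2 were too low to be tested, with medians of 1.59, 0.823 and 1.59 CPM (UMIs of the gene per 1e+06 UMIs of the well; here by library totals, as for marker sums and the germ layer experiment, while other levels use totals scaled by TMM factors) in mesendoderm control wells. Stem cell genes were not lost, and some stood higher in mesendoderm than in undirected control wells. Those called were Nanog (1.01 ± 0.19, adjusted p = 3.53e-05), Zfp42 (0.72 ± 0.17), Klf2 (0.84 ± 0.18) and Tfcp2l1 (1.00 ± 0.20). Esrrb, Klf4, Pou5f1 and Sox2 were not called there (0.45, 0.37, -0.25 and -0.05). In treated wells Pou5f1 and Sox2 were called lower after the mesendoderm start (-0.19 and -0.21) and Klf4 higher (0.30). T, Fgf8 and Mixl1 were called higher in treated wells (1.16, 1.48 and 1.57), and Eomes and Wnt3 were not called (0.01 and 0.14). The name of the mesendoderm start therefore rests on its treatment and on T and Fgf8, with Mixl1 in treated wells alone, not on the whole marker set.

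In canonical Wnt signalling a ligand binds Frizzled and Lrp receptors, the destruction complex around Axin, Apc and Gsk3 stops degrading β-catenin, and β-catenin joins TCF/LEF factors on target genes, among them inhibitors that feed back on the pathway. In early embryos this pathway drives the primitive streak and the posterior body axis, where Cdx and Hox genes are switched on in order along each cluster. In mouse stem cells the same pathway sustains the naive, inner-cell-mass-like state and opposes the primed, epiblast-like state, while retinoic acid is an independent inducer of the early Hox genes.

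Most genes called for Wnt in both starts moved the same way. In the undirected wells 3176 of 8791 genes passed an adjusted p of 0.05 (36.1%), 1468 up (16.7%) and 1708 down (19.4%), and in the mesendoderm wells 3612 did (41.1%), 1746 up (19.9%) and 1866 down (21.2%). Of 2094 genes called in both starts, 2038 moved the same way and 56 moved opposite ways. Across genes, which are not independent replicates, the effects had a Pearson correlation of 0.71 and a Spearman correlation of 0.66. The split into up and down rests on the scaling. With library totals in place of TMM factors, the median gene shifted from -0.0145 to -0.159 in undirected wells and from -0.00847 to -0.147 in mesendoderm wells. The calls then became 774 up and 3155 down, and 872 up and 3674 down. The difference between starts was little touched, with 364 genes higher and 319 lower under TMM and 360 and 297 under library totals.

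The 683 genes with a called difference (7.77% of those tested) fell into several patterns. In 266 the Wnt effect was called in undirected wells alone, and in 195 in mesendoderm wells alone. In 158 both effects were called in the same direction, 127 of them larger after the undirected start and 31 larger after the mesendoderm start. In 56 the effects were called in opposite directions, 34 falling in undirected and rising in mesendoderm wells and 22 the reverse. The remaining 8 had neither effect called on its own. The scatter of the effects shows both the shared diagonal and the genes that leave it.

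**Figure D1:**
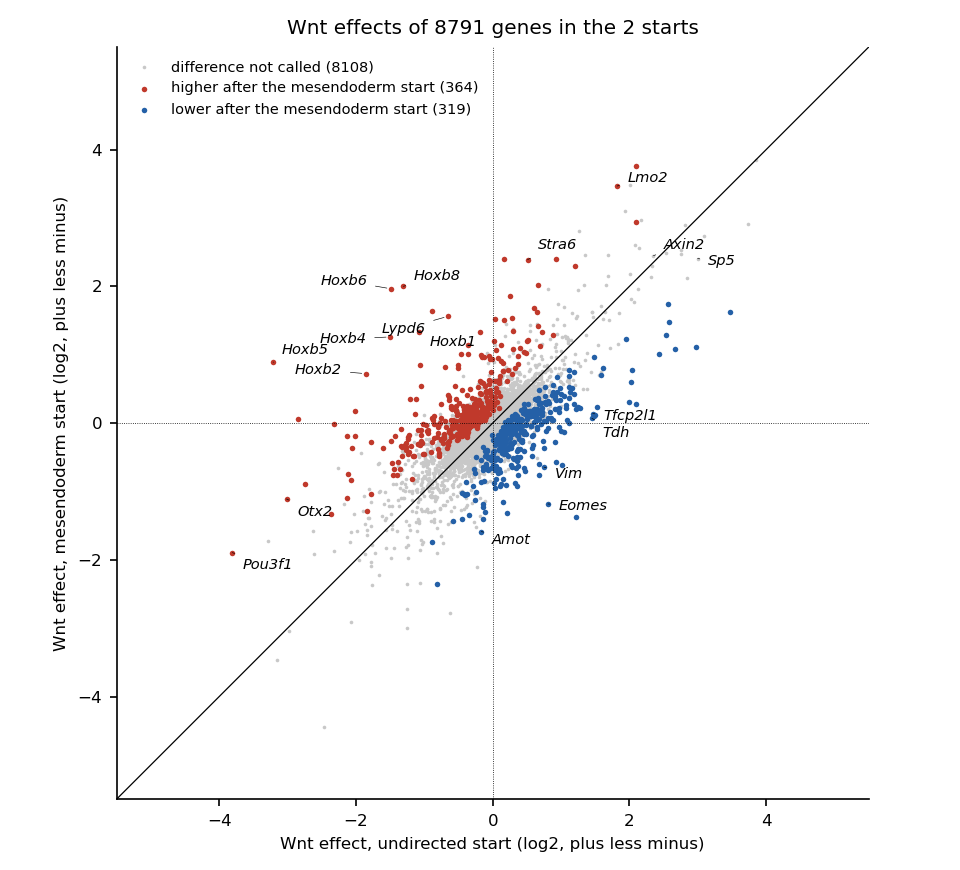
Wnt effect (log2, plus less minus) of 8791 genes after the undirected start (x axis) and after the mesendoderm start (y axis), each point a gene, with the line of equal effects. Red points (364 genes) responded more positively and blue points (319 genes) more negatively after the mesendoderm start; Hoxb1, Hoxb2, Hoxb4, Hoxb5, Hoxb6 and Hoxb8 lie in the upper left quadrant, while Axin2 lies near the line.

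Feedback and direct target genes of Wnt rose from either start. Of 12 tested, 11 rose in undirected and 12 in mesendoderm wells (background 16.7% and 19.9%), with median effects of 1.6 and 1.58. Of the 12, Notum and Ccnd2 had a called difference, both more positive after the mesendoderm start (background 4.14%). Differences over the list ran from -0.84 to 0.88 with a median of 0.13, against 0.00502 over all genes. Axin2, a scaffold of the destruction complex and the usual readout of the pathway, ranged from 0 to 47.1 CPM (median 19.6) in undirected Wnt minus wells and from 41.8 to 308 (median 110.2) in Wnt plus wells. After the mesendoderm start it ranged from 17.5 to 78.4 CPM (median 34.6) in Wnt minus and from 100.4 to 308 (median 199) in Wnt plus wells. Within the mesendoderm start the Wnt groups did not overlap, and in the undirected start 29 of 30 Wnt plus wells lay above every Wnt minus well. Its effects of 2.35 ± 0.12 and 2.45 ± 0.09 differed by 0.10 ± 0.16 (adjusted p = 0.801). Sp5, a repressor that Wnt induces directly, rose by 3.00 ± 0.20 and 2.40 ± 0.13, and Lef1, a DNA-binding partner of β-catenin, by 1.47 ± 0.14 and 1.54 ± 0.10; neither difference passed (adjusted p = 0.146 and 0.87). Exons of Axin2, Lef1, Notum and Ccnd2 overlap antisense genes, and the sources do not say if reads were counted by strand, so their counts are uncertain.

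Notum, a secreted enzyme that inactivates Wnt ligands, stood at 0 to 17.5 CPM (median 6.94) in undirected Wnt minus wells and at 0 to 134 (median 26.0) in Wnt plus wells. After the mesendoderm start it went from 4.37 to 20.9 CPM (median 8.60) to between 18.1 and 216 (median 68.7). Mesendoderm Wnt plus wells thus reached the higher levels, and 31 of 32 exceeded every Wnt minus well of that start, against 22 of 30 in the undirected start. The difference was 0.83 ± 0.28 (adjusted p = 0.0416). Ccnd2, a cyclin of the G1 phase, rose by 0.95 ± 0.10 after the mesendoderm start, while its undirected effect of 0.07 ± 0.17 was not called (difference 0.88 ± 0.20, adjusted p = 0.00111). Nkd1, an inhibitor of Dishevelled, missed the threshold at 0.79 ± 0.29 (adjusted p = 0.0734). Notum kept its call under 5 of 14 alternatives (adjusted p up to 0.511) and Ccnd2 under 11 of 14.

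Among 11 tested ligands and ligand-processing genes, 3 had a called difference and all were lower after the mesendoderm start (background 3.63%). Wnt8a, a streak ligand, ranged from 0 to 9.69 CPM (median 1.49) in undirected Wnt minus wells and from 0 to 29.3 (median 5.66) in Wnt plus wells. In mesendoderm wells it was at 0 to 20.3 CPM (median 5.49) and 1.41 to 21.0 (median 7.43). The mesendoderm Wnt minus median was thus near the undirected Wnt plus median, and all groups overlapped. It rose by 1.99 ± 0.33 from the undirected start, with 0.31 ± 0.20 from the mesendoderm start (adjusted p = 0.227), a difference of -1.68 ± 0.38 (adjusted p = 0.00134). Wnt3, the ligand that starts the streak, and Porcn, which attaches the lipid that ligands need, also rose from the undirected start alone, with differences of -1.0 ± 0.27 and -0.60 ± 0.19. Of 8 receptors only the non-canonical receptor Ror2 was called (-0.75 ± 0.21, adjusted p = 0.0131). Of 4 secreted antagonists Sfrp2 was called (0.66 ± 0.22, adjusted p = 0.0399), and of 17 destruction complex and TCF genes the co-repressor Tle3 (0.54 ± 0.16, adjusted p = 0.0167). Single calls in lists of this size are to be read against the 7.77% of all genes called. Porcn kept its call under 7 of 14 alternatives and Sfrp2, which overlaps an antisense gene, under 6 of 13.

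The Hox genes were among those with the widest differences; they are the transcription factors that give cells their position along the body axis. Of 26 listed, 18 were tested; 12 differed, all higher after the mesendoderm start (background 4.14%), and the median difference was 1.72. In undirected wells 11 of the 18 fell with Wnt and 2 rose (background 19.4% and 16.7%), and in mesendoderm wells 14 rose and 0 fell (19.9% and 21.2%). With library totals 1 fell and 13 rose in mesendoderm wells. All 8 tested genes of the Hoxb cluster were among the 12, with 4 of the 10 outside it (Hoxa3, Hoxa7, Hoxc4 and Hoxc5). The posterior genes Hoxa9 and Hoxd9 went up from either start with no called difference: Hoxa9 rose by 2.00 and 2.17 and Hoxd9 by 1.35 and 2.46 (difference 1.12 ± 0.46, adjusted p = 0.126). Many wells hold few Hox UMIs, and 14 of 30 undirected Wnt plus wells had 0 for Hoxb5.

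The Hoxb genes lie side by side on chromosome 11, as GENCODE vM21 (GRCm38) places them, with Hoxb8 at chr11:96281905-96285315, Hoxb6 at chr11:96292476-96301569, Hoxb5 at chr11:96303336-96306121, Hoxb4 at chr11:96318267-96321638, Hoxb2 at chr11:96350525-96354012 and Hoxb1 at chr11:96365752-96368256, all on the plus strand. Exons of Hoxb5 overlap the antisense gene Hoxb5os and those of Hoxb2 overlap Hoxb3os; the sources do not say if reads were counted by strand, so their counts are uncertain. The 250 bases before the RefSeq start (GRCm38.p6, plus strand, 5′ to 3′) are shown for a pair of Hoxb genes and a pair of Wnt targets. Fitted across the RA settings, the Wnt effects of the Hoxb pair had opposite signs in the starts, and those of the Wnt targets did not. Capitals mark the TCF and LEF core CTTTGAT or the Cdx core TTTATG on either strand; these motifs share no letters in these windows. The windows are chr11:96281655-96281904 for Hoxb8, chr11:96318017-96318266 for Hoxb4, chr11:108920099-108920348 for Axin2 and chr2:70474673-70474922 for Sp5.
Hoxb8: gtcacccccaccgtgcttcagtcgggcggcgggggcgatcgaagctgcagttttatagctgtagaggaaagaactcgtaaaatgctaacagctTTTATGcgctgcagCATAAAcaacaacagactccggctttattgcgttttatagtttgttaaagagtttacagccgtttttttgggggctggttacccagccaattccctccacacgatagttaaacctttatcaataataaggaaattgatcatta
Hoxb4: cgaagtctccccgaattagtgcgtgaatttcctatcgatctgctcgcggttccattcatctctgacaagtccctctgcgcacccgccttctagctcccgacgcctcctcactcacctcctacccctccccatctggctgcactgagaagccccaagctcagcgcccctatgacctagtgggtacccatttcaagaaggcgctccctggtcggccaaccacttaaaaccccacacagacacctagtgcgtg
Axin2: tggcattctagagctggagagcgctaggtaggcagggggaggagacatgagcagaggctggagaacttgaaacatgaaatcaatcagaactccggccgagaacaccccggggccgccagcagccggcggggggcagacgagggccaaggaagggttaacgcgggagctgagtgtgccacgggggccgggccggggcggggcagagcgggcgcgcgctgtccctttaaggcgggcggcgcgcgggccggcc
Sp5: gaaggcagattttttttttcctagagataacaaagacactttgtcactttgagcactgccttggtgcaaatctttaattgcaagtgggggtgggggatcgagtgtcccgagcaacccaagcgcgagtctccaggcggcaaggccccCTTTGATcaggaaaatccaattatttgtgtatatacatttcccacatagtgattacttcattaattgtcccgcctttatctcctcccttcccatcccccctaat
Sp5 holds 1 CTTTGAT, which 1053 of 32851 windows of this length hold (3.21%), and Hoxb8 holds 2 TTTATG (once on each strand), which 3536 hold at least once (10.8%). Neither motif is in these letters of Hoxb4 or Axin2. A match describes the letters and shows no binding.

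RA was the other input on these genes, so levels are given at each RA setting. Hoxb4 ranged from 4.40 to 123 CPM (median 58.5) in the undirected wells with RA plus and Wnt minus, and from 0 to 44.6 (median 10.9) where Wnt was plus as well. With RA minus the undirected wells held 0 to 4.61 CPM (median 1.17) at Wnt minus and 0 to 12.3 (median 4.62) at Wnt plus. After the mesendoderm start Hoxb4 had medians of 17.9 CPM at Wnt minus and 36.0 at Wnt plus with RA plus, and of 4.31 and 18.3 with RA minus. The highest wells were therefore undirected, RA plus and Wnt minus, and the level there was lower where Wnt was plus, though the ranges overlapped. In mesendoderm wells Wnt plus was the higher group at either RA setting. The effects fitted across the RA settings were -1.50 ± 0.22 and 1.26 ± 0.15, a difference of 2.76 ± 0.26 (adjusted p = 4.84e-16). They weigh the RA plus wells, where counts were higher, more than the RA minus wells.

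Hoxb5 gave the widest difference. With RA plus, undirected wells held 4.40 to 137 CPM (median 52.0) at Wnt minus and 0 to 16.7 (median 3.82) at Wnt plus, and with RA minus medians of 1.72 and 0. Mesendoderm wells had medians of 10.8 and 13.4 CPM at Wnt minus and plus with RA plus, and of 2.27 and 11.1 with RA minus. In CPM, the undirected fall was thus wider from the high level under RA, and the mesendoderm rise from the low level without it. The difference kept its call under 14 of 14 alternatives, RA plus wells alone and RA minus wells alone among them. The effects were -3.21 ± 0.31 and 0.89 ± 0.19, and the difference 4.10 ± 0.37 (adjusted p = 2.44e-17).

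Hoxb1, the most 3′ gene of the cluster and a direct RA target, had medians of 46.5 CPM at Wnt minus and 16.0 at Wnt plus in undirected RA plus wells, and of 3.74 and 4.13 in undirected RA minus wells. In mesendoderm wells the medians were 24.8 and 28.1 CPM with RA plus and 2.95 and 34.6 with RA minus. Without RA, therefore, Wnt plus brought Hoxb1 to about its RA level in mesendoderm wells and left undirected wells near the control wells (median 2.28 CPM). Its difference was 2.41 ± 0.32 (adjusted p = 3.61e-09). Hoxb2, Hoxb6 and Hoxb8 had differences of 2.58 ± 0.29, 3.45 ± 0.37 and 3.31 ± 0.33, with undirected effects of -1.85, -1.49 and -1.31 and mesendoderm effects of 0.72, 1.96 and 2.00. In a fit that lets the Wnt effect depend on the other pathways, the difference of Hoxb4 was 1.42 and that of Hoxb6 was 2.26, still called.

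**Figure D2:**
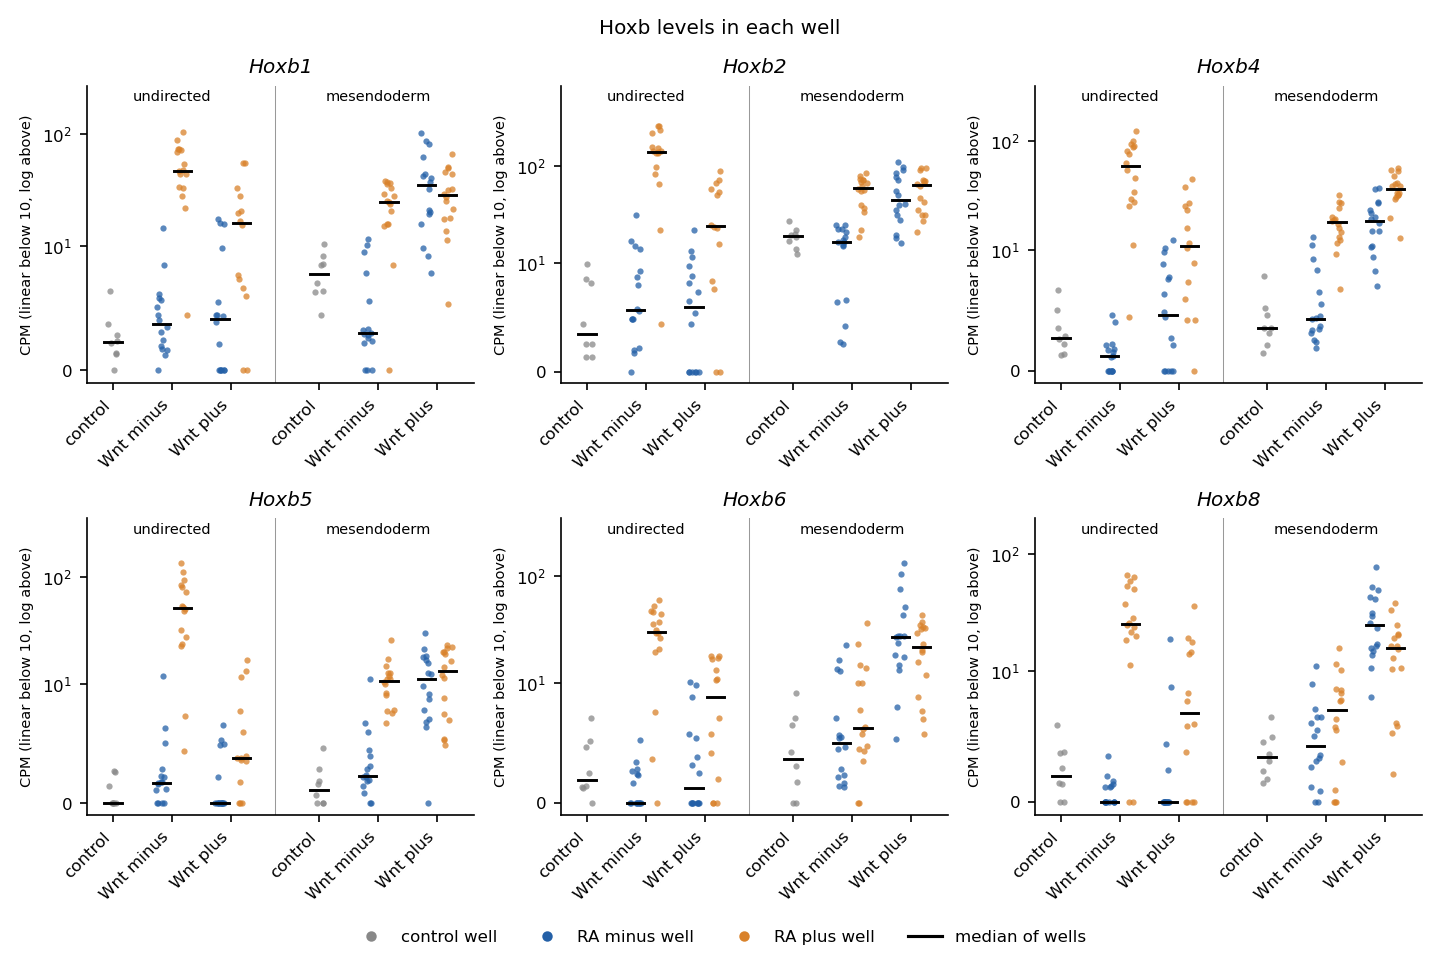
Level of 6 Hoxb genes in each well (CPM, linear below 10 and logarithmic above), by start and Wnt level, with RA minus wells in blue, RA plus wells in orange, control wells in grey and black bars for medians. In undirected RA plus wells the Wnt plus points sit lower than the Wnt minus points (Hoxb4 medians 10.9 and 58.5 CPM), while in mesendoderm RA minus wells they sit higher (18.3 and 4.31 CPM).

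Split by RA, the undirected Wnt effect with RA plus was -1.91 ± 0.32 for Hoxb1, -2.15 ± 0.25 for Hoxb2 and -1.95 ± 0.25 for Hoxb4. With RA minus the same effects were 0.19 ± 0.57 and -0.21 ± 0.50, neither called, and 1.75 ± 0.53 for Hoxb4 (adjusted p = 0.00922). After the mesendoderm start Wnt raised Hoxb1 by 3.06 ± 0.26 and Hoxb2 by 1.79 ± 0.22 with RA minus, against 0.20 ± 0.19 and -0.10 ± 0.16 with RA plus, neither called. Whether the difference between starts itself depends on RA was tested over all genes, and 4 passed (0.0455%), 3 with a positive change (0.0341%) and 1 with a negative one (0.0114%). Hoxb4 was one: its difference was 2.96 ± 0.30 with RA plus and -0.13 ± 0.39 with RA minus, and the test of the change was 3.09 ± 0.67 (adjusted p = 0.0163). For Hoxb1, Hoxb2, Hoxb5, Hoxb6 and Hoxb8 that test did not pass (adjusted p from 0.479 to 1), so a dependence on RA is not shown for their differences.

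The fall of Hoxb1, Hoxb2 and Hoxb4 from the undirected start was not seen in the germ layer experiment, which also treated undirected cells for 24 h. Hoxb3, Hoxb5, Hoxb6, Hoxb8 and Hoxb9 did not pass the filter on low counts there, so that fit gives no value for them. There, over 32 populations of at least 5 cells, 2410 of 9811 genes were called for Wnt (24.6%), and Hoxb1 rose by 1.33 ± 0.31 (adjusted p = 0.00164), Hoxb2 by 0.58 ± 0.18 (adjusted p = 0.0185) and Hoxb4 by 0.57 ± 0.20 (adjusted p = 0.0327). With RA plus, Hoxb4 ranged from 7.08 to 18.2 CPM (median 10.3) at Wnt minus and from 4.49 to 31.7 (median 15.8) at Wnt plus; the median in the mixed wells, on their own scaling, was 58.5 CPM at Wnt minus. The Wnt effect on Hoxb1 was 0.56 ± 0.31 with RA plus (adjusted p = 0.235) and 3.20 ± 0.48 with RA minus (adjusted p = 8.69e-06). In mesendoderm wells of the mixed experiment it was 0.20 and 3.06. Outside the Hoxb cluster, Hoxc4 and Hoxa2 did fall with RA plus in the germ layer experiment (-0.87 ± 0.21, adjusted p = 0.0036, and -0.87 ± 0.17, adjusted p = 0.000507). Hoxa7, Hoxc8 and Hoxc9 rose there with RA plus (2.61, 3.07 and 3.09). Hoxa2 was not tested in the mixed wells. Genes that did move opposite ways in the mixed wells numbered 56, of which 48 had a value there; 27 kept the sign of the mixed undirected effect, 5 of them called, and 8 were called with the other sign. Over all 8574 genes tested in both experiments, 6236 had the same sign of the undirected effect. Of 1451 genes called in both, 1423 had the same sign. The reason the undirected cells of the experiments differ in the other genes was not tested.

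**Figure D3:**
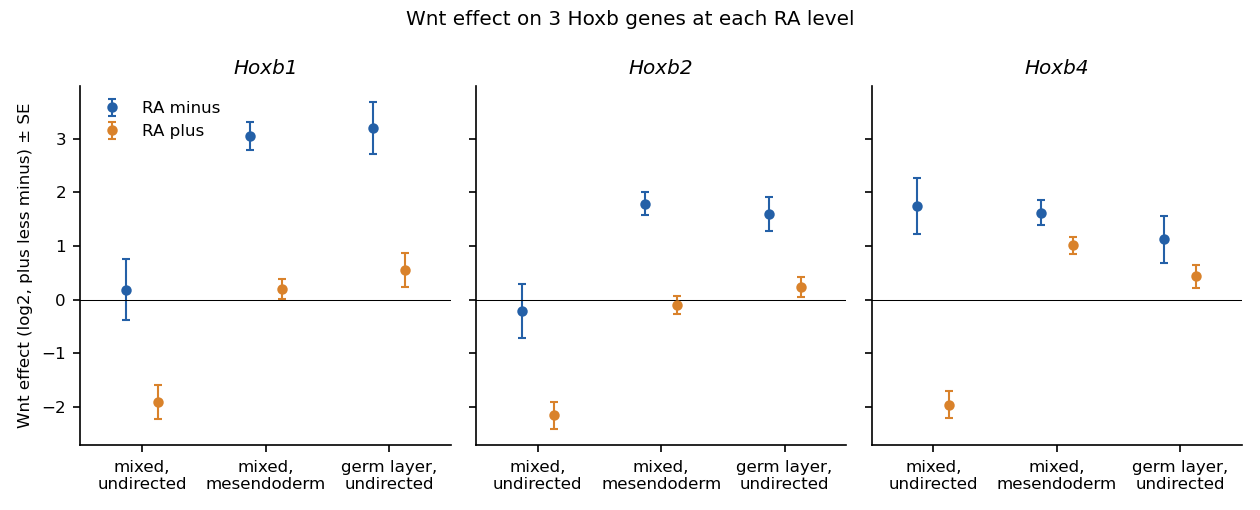
Wnt effect (log2, plus less minus, ± SE) on Hoxb1, Hoxb2 and Hoxb4 with RA minus (blue) and RA plus (orange), in the mixed experiment after each start and in the germ layer experiment. The undirected RA plus effects of the mixed wells (-1.91, -2.15 and -1.95) lie far below 0, where no effect of the mesendoderm start or the germ layer experiment does.

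Genes of the RA response had differences of the same sign as the Hox genes where they were called. Of 15 RA targets, 7 were called higher after the mesendoderm start and 0 lower (background 4.14% and 3.63%), with a median difference of 0.57; in undirected wells 10 fell and 2 rose with Wnt (background 19.4% and 16.7%), and in mesendoderm wells 6 fell and 6 rose (21.2% and 19.9%). Hoxb1 is on both lists. Meis2, a cofactor of Hox proteins, ranged from 35.2 to 213 CPM (median 93.3) in undirected RA plus wells at Wnt minus and from 0 to 33.4 (median 17.9) at Wnt plus, without overlap. The mesendoderm medians under RA were 71.3 and 49.2 CPM, with overlapping ranges. Its effects were -2.02 ± 0.21 and -0.20 ± 0.13, a difference of 1.82 ± 0.26 (adjusted p = 2.53e-08). Stra6, the receptor that takes up retinol, did not pass in undirected wells (0.51 ± 0.30, adjusted p = 0.179) and rose by 2.39 ± 0.17 in mesendoderm wells, from a median of 1.27 to 22.1 CPM with RA minus. The RA-degrading enzyme Cyp26a1 and the receptor Rarb had no called difference (adjusted p = 0.215 and 0.881). In the germ layer experiment Meis2 also fell with Wnt, by 1.02 ± 0.18 on the log2 scale (adjusted p = 6.19e-05).

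Naive pluripotency genes had differences of the other sign. Of 13 tested, 9 had a lower and 1 (Klf5) a higher Wnt effect after the mesendoderm start (background 3.63% and 4.14%), with a median difference of -0.90. From the undirected start 9 rose with Wnt and 1 fell (background 16.7% and 19.4%), and from the mesendoderm start 1 rose and 5 fell (19.9% and 21.2%). With library totals 6 rose in undirected and 6 fell in mesendoderm wells, and the difference of Klf5 was no longer called, nor was it with RLE factors. Tfcp2l1, a factor of the naive network, ranged from 4.39 to 44.0 CPM (median 22.0) in undirected Wnt minus wells and from 25.1 to 153 (median 51.4) in Wnt plus wells. In mesendoderm wells it ranged from 14.5 to 66.0 CPM (median 32.0) and from 13.3 to 108 (median 32.5). Every undirected Wnt plus well lay above the undirected Wnt minus median, against 16 of 32 in the mesendoderm start. The effects were 1.46 ± 0.13 and 0.14 ± 0.10, and the difference -1.32 ± 0.16 (adjusted p = 1.98e-10).

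Tdh, the threonine dehydrogenase that mouse stem cells depend on, had a median of 53.4 CPM at Wnt minus and 146 at Wnt plus in undirected wells, and of 68.0 and 88.8 in mesendoderm wells (difference -1.38 ± 0.15, adjusted p = 5.06e-13). Esrrb, Nr5a2 and Klf4 shared this pattern, rising from the undirected start (0.73, 1.09 and 0.81) with differences of -0.99, -1.04 and -0.74. Zfp42 and Nanog, markers of undifferentiated cells, rose slightly from the undirected start (0.34 ± 0.11 and 0.35 ± 0.14) and fell from the mesendoderm start (-0.65 ± 0.09 and -0.56 ± 0.11). Their differences were -0.99 ± 0.14 and -0.91 ± 0.18 (adjusted p = 2.77e-08 and 8.47e-05), but with library totals the undirected rises were 0.20 and 0.21 and no longer passed (adjusted p = 0.112 and 0.207). These rises are against Wnt minus wells, not control wells. By library totals, undirected Wnt plus medians lay below control medians for Klf4 (45.9 against 59.2 CPM), Zfp42 (247.3 against 380.5) and Nanog (86.7 against 89.5). They lay above control medians for Tfcp2l1 (49.2 against 25.2 CPM) and Esrrb (24.4 against 22.7). In the germ layer experiment Tfcp2l1 rose with Wnt by 0.41 ± 0.15 (adjusted p = 0.0424), while Nanog fell by 0.49 ± 0.17 on the log2 scale (adjusted p = 0.0282). The general pluripotency list, with Pou5f1 and Sox2, had 2 of 12 called, Nanog and Dppa5a, both lower.

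Most primed epiblast genes fell with Wnt. Of 11 tested, 9 fell and 2 rose in undirected wells (background 19.4% and 16.7%), and 7 fell and 2 rose in mesendoderm wells (21.2% and 19.9%); the genes that rose were Lef1 and Etv4. A difference was called for 5, all positive (background 4.14%), and the median was 0.82. Otx2, an anterior and epiblast factor, ranged from 2.16 to 208 CPM (median 40.6) at Wnt minus and from 0 to 26.7 (median 6.54) at Wnt plus in undirected wells. In mesendoderm wells it ranged from 1.45 to 49.7 (median 12.4) and from 0 to 16.1 (median 4.64). The Wnt plus wells of the starts were thus close, while the Wnt minus wells and the controls (medians 129.6 and 28.9 CPM) stood higher in the undirected start. The effects were -3.02 ± 0.26 and -1.11 ± 0.22, a difference of 1.91 ± 0.38 (adjusted p = 0.000195). Pou3f1, another epiblast factor, had effects of -3.81 ± 0.25 and -1.90 ± 0.23 (difference 1.91 ± 0.41, adjusted p = 0.000613), and the DNA methyltransferases Dnmt3a and Dnmt3b had differences of 0.78 ± 0.15 and 0.82 ± 0.18. The differences of Otx2 and Pou3f1 lost their call with at least 20 cells per well (1.46 and 1.01), a setting that leaves 6 undirected Wnt plus wells, and in RA plus wells alone that of Otx2 was 0.38 and that of Pou3f1 was 1.11, neither called. Exons of both overlap antisense genes, as do those of Dnmt3a, Tdh, Eomes, Greb1, Nkx1-2, Tgfb2 and Cdkn1a, so their counts are uncertain. Of 6 neural genes Sox3, Nes and Zic5 were called higher (background 4.14%), each falling from the undirected start (-1.21, -1.23 and -1.48), with differences of 1.57, 1.05 and 0.89; Sox3 is on both lists.

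**Figure D4:**
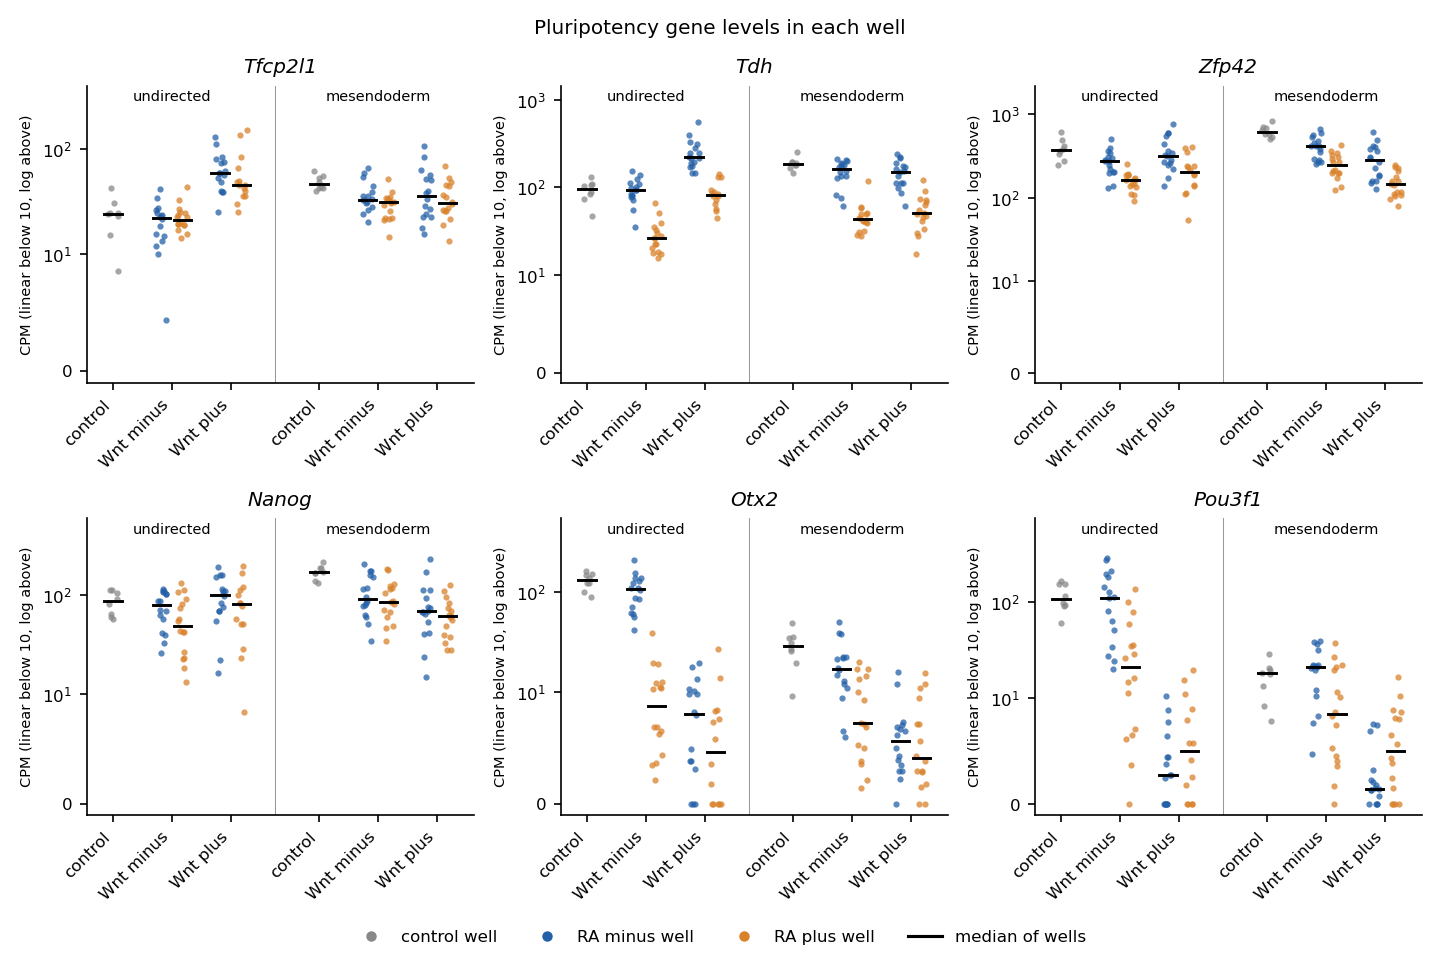
Level of 4 naive or general pluripotency genes (Tfcp2l1, Tdh, Zfp42, Nanog) and 2 primed epiblast genes (Otx2, Pou3f1) in each well (CPM, linear below 10 and logarithmic above), with colours and bars as in the plot of Hoxb levels. Tfcp2l1 rises with Wnt in undirected wells (medians 22.0 and 51.4 CPM) and not in mesendoderm wells (32.0 and 32.5 CPM), and Otx2 control wells stand higher in the undirected start (129.6 against 28.9 CPM).

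Several streak and caudal genes rose with Wnt from either start. Of 10 tested streak genes, 6 rose and 2 fell in undirected wells (background 16.7% and 19.4%). In mesendoderm wells 4 rose and 4 fell (background 19.9% and 21.2%). A difference was called for 3 (background 7.77%), Wnt3 and Eomes lower and Pou3f1, which is also on the epiblast list, higher. T, the Brachyury factor, had medians of 8.82 and 66.2 CPM at Wnt minus and plus in undirected wells and of 17.0 and 99.3 in mesendoderm wells. Its effects of 2.85 ± 0.23 and 2.12 ± 0.15 differed by -0.73 ± 0.28, which did not pass (adjusted p = 0.1). Mixl1 rose by 2.76 and 2.48 and Evx1 by 2.54 and 2.48. Eomes, a T-box factor of early mesendoderm, had medians of 4.09 and 4.81 CPM in undirected and of 6.95 and 3.80 in mesendoderm wells and all groups overlapping. Its effects were 0.81 ± 0.28 and -1.18 ± 0.21 (difference -1.99 ± 0.35, adjusted p = 1.48e-05); at this level 11 of 30 undirected Wnt plus wells held no Eomes UMI. With products of the pathways in the fit the difference of Eomes was -1.03 and no longer called, and in RA plus wells alone it was -0.58, also not called. In the germ layer experiment its Wnt effect was -0.57 ± 0.22 (adjusted p = 0.0565). Of 8 tested caudal genes 3 had a called difference (background 7.77%). Cdx2, which switches on posterior Hox genes, rose less from the mesendoderm start (1.74 ± 0.10 against 2.56 ± 0.14; difference -0.82 ± 0.18, adjusted p = 0.00102), while Greb1 rose more (difference 0.97 ± 0.25, adjusted p = 0.00671). Nkx1-2, a homeobox gene of the caudal epiblast, also rose less (difference -1.09 ± 0.35, adjusted p = 0.0344), a call kept under 6 of 13 alternatives.

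Lmo2, an adaptor protein of blood and endothelial progenitors, rose from 0 to 23.0 CPM (median 5.84) to 0 to 84.0 (median 22.6) in undirected wells. In mesendoderm wells it rose from 0 to 16.1 CPM (median 5.45) to 7.0 to 159.5 (median 67.7). The starts were alike at Wnt minus and in control wells (6.92 and 7.06 CPM), and 29 of 32 mesendoderm Wnt plus wells exceeded every Wnt minus well of that start. The difference was 1.65 ± 0.32 (adjusted p = 0.000109). The other 3 tested endothelial and blood genes (Pecam1, Runx1 and Gata2) had none called. Lypd6, a membrane-anchored enhancer of Wnt receptor signalling, rose by 1.56 ± 0.13 from the mesendoderm start, with -0.65 ± 0.30 from the undirected start (adjusted p = 0.0736; difference 2.21 ± 0.32, adjusted p = 3.96e-08).

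Vimentin (Vim), an intermediate filament of mesenchymal cells, moved opposite ways. It ranged from 8.80 to 72.5 CPM (median 31.1) at Wnt minus and from 15.4 to 159.8 (median 48.2) at Wnt plus in undirected wells, and from 34.7 to 230.3 (median 87.4) and 23.6 to 154 (median 61.4) in mesendoderm wells. At Wnt minus the mesendoderm wells thus stood above the undirected wells, and at Wnt plus the medians of the starts were closer. The effects were 0.75 ± 0.17 and -0.64 ± 0.11 (difference -1.40 ± 0.20, adjusted p = 6.96e-08). Amot, which binds YAP at cell junctions, fell by 1.59 ± 0.16 on the log2 scale from the mesendoderm start, with -0.17 ± 0.23 from the undirected start (difference -1.42 ± 0.29, adjusted p = 0.000292), and Tgfb2, a ligand of the Tgfb family, fell by 1.31 ± 0.17 from the mesendoderm start (difference -1.52 ± 0.47, adjusted p = 0.0245). Slc16a3, a lactate exporter, fell by 2.06 ± 0.21 from the undirected start, with -0.37 ± 0.16 from the mesendoderm start (adjusted p = 0.0594; difference 1.69 ± 0.28, adjusted p = 2.17e-06).

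In the other lists 0 to 2 members were called, to be read against 7.77% of all genes. The 13 tested FGF and ERK targets had a median difference of -0.00328, the 7 lateral mesoderm genes of -0.0955 and the 6 endoderm genes of -0.103, with no gene called. BMP targets had 2 of 13 called (Id2, 0.63 ± 0.17, and Dlx5), Nodal and Activin targets 2 of 10 (Eomes and Skil), and p53 and apoptosis genes 1 of 11 (Cdkn1a, 0.41 ± 0.12). S phase genes had 2 of 12 called (Mcm5 and Mcm3, differences of -0.35 and -0.29), glycolysis genes 2 of 11 (Ldha 0.36 and Pdk1 -0.52) and interferon genes 1 of 7 (Ddx58, -1.05, called under 5 of 12 alternatives). G2/M genes had 2 of 12 called (Kif20a and Birc5, -0.44 and -0.16), cadherin and mesenchymal transition genes 2 of 11 (Vim and Crb3) and surface ectoderm and trophoblast genes 2 of 12 (Tfap2c, -0.95, and Dlx5). Some genes belong to several lists, so their counts are not independent.

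**Figure D5:**
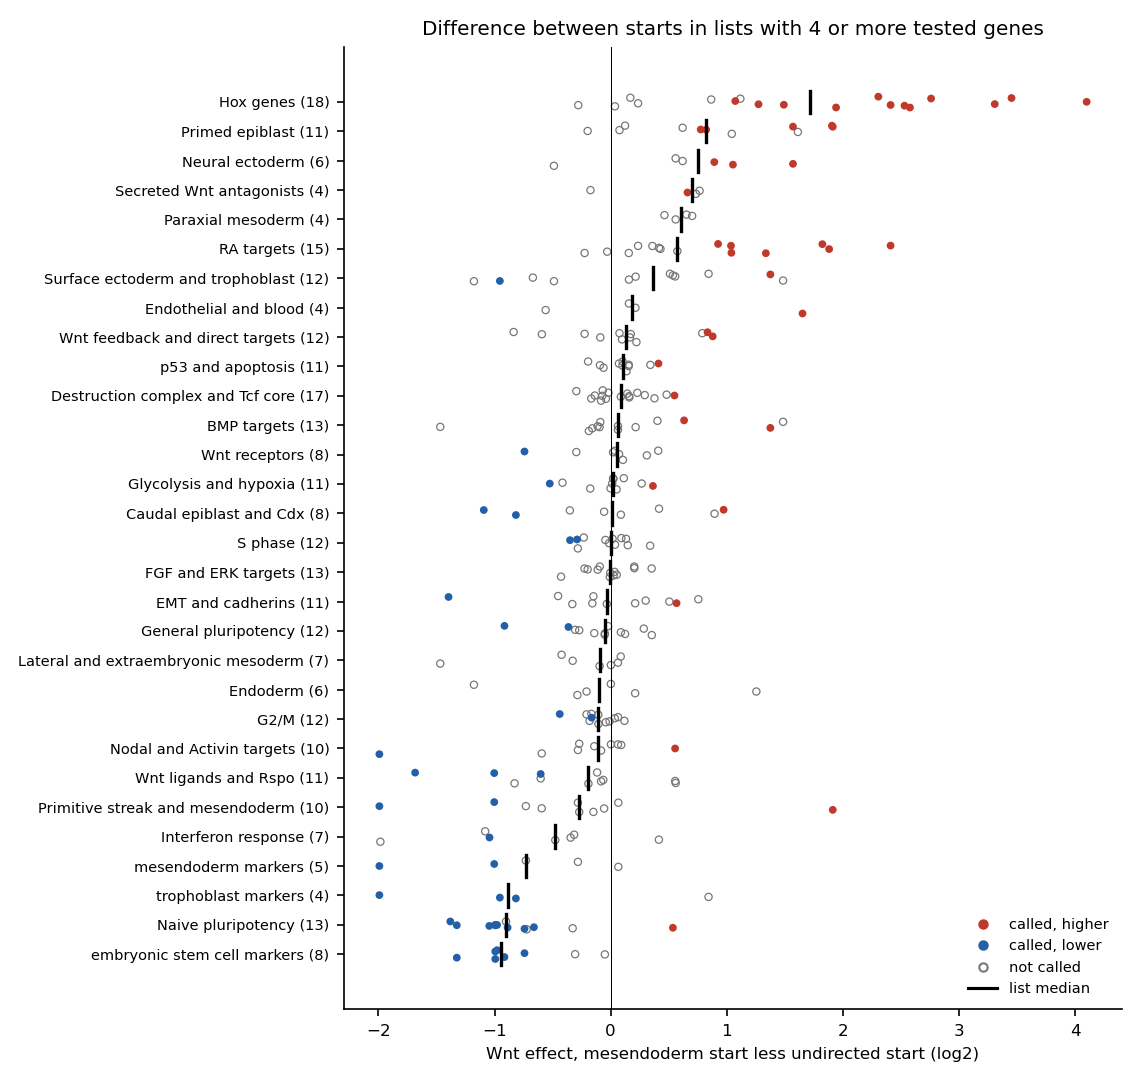
Difference of the Wnt effect between starts (log2, mesendoderm less undirected) for the tested members of each list with 4 or more of them (number in brackets), with called genes in red or blue, others as open circles, and a black bar at the list median. Hox genes (median 1.72) sit at the top, naive pluripotency genes (median -0.90) near the bottom, and Wnt feedback genes (median 0.13) near 0.

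Markers of other cell types were followed in the same wells. The summed level of 7 fibroblast markers had medians of 6.634 and 2.433 CPM in undirected Wnt minus and plus wells and of 16.93 and 7.966 in mesendoderm wells. Those of 5 visceral endoderm markers lay between 3.598 and 4.768 CPM in these wells. There the 5 trophoblast markers, which include Cdx2 and Eomes, had medians from 67.28 to 119.2 CPM, and the 4 neuron markers from 110.7 to 152.1 CPM. Stmn2 alone had medians from 92.6 to 137.7 CPM, so the neuron sum mostly follows 1 gene. Undirected and mesendoderm control wells had medians of 44.4 and 105.8 CPM for trophoblast markers and of 182.5 and 174.7 for neuron markers. Embryonic stem cell markers summed to medians of 1069 and 1157 CPM in undirected and of 1228 and 778.1 in mesendoderm wells at Wnt minus and plus. Only 1 of the 7 fibroblast and 1 of the 5 visceral endoderm markers passed the filter, and no marker of these lists was at 0 in all wells. The part of such cells in the differences was not tested.

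Of the other pathways, RA also acted differently by start, with 499 called genes (5.68%), 215 higher (2.45%) and 284 lower (3.23%) after the mesendoderm start. Fgf followed with 129 (1.47%), 82 higher (0.933%) and 47 lower (0.535%), and Bmp with 17 (0.193%), 4 higher (0.0455%) and 13 lower (0.148%). The difference in the Wnt response itself depended on RA for 4 genes and on Tgfb, Bmp or Fgf for 0 (edgeR; 451, 541 and 512 genes had an unadjusted p under 0.05). Besides Hoxb4, these included Rock2, a kinase that acts on the actin cytoskeleton (1.35 ± 0.24, adjusted p = 0.00122), and Cdx1, a direct target of both Wnt and RA (-1.48 ± 0.30, adjusted p = 0.0083). Cdx1 was highest where both were plus, with medians of 457 CPM in undirected and 659 in mesendoderm wells, against 43.2 and 124 with RA alone and 91.7 and 199 with Wnt alone. Its Wnt effect with RA plus was 3.24 ± 0.14 from the undirected and 2.5 ± 0.11 from the mesendoderm start, and with RA minus 1.94 ± 0.19 and 2.69 ± 0.14.

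The comparison was repeated in wells the mixed experiment did not use, by setting the mesendoderm experiment (300 wells) against the germ layer experiment (32 populations). Start and experiment cannot be told apart there, and the mesendoderm wells held 2633 cells in all, and 2778 genes passed the filter, of which 290 were called (10.4%), 117 higher (4.21%) and 173 lower (6.23%). Of 301 genes called in the mixed wells with a value there, 238 had the same sign (79.1%), against 1588 of 2472 genes not called (64.2%). Of those 301, 63 were called there with the same sign and 8 with the opposite sign. Vim differed by -1.20 (adjusted p = 8.85e-09), Amot by -1.04 (adjusted p = 4.84e-06), Tgfb2 by -1.93 (adjusted p = 1.83e-08), Cdx2 by -1.33 (adjusted p = 5.95e-10) and Meis2 by 0.67 (adjusted p = 0.00318), each with the sign of the mixed wells. Hoxb1 and Hoxb2 had no called difference (-0.38 and 0.08, adjusted p = 0.42 and 0.862), nor had Lmo2 (-0.03, adjusted p = 0.796). Ccnd2 and Ldha were called with the opposite sign (-0.50, adjusted p = 0.0114, and -0.31, adjusted p = 0.0163). Of the Wnt targets not called in the mixed wells, Lef1 and T were called there (-0.72, adjusted p = 1.85e-05, and -0.97, adjusted p = 0.00105). Axin2 and Sp5 were not (0.23 and -0.22, adjusted p = 0.342 and 0.492). The shared cell barcodes were 64 between the mixed and germ layer and 111 between the mixed and mesendoderm experiments.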

How the data were processed

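Single-cell libraries of 3 experiments were deposited as UMI counts per gene and cell, with tables that assign cells to barcodelet tags. Per the submitters' processing notes, build mm10 was used with HTSeq 0.9.1, STAR 2.5.2b and Cell Ranger 1.3.1; which step each did, how tags were assigned and whether strand was used are unstated there. The deposited fraction columns of the assignment tables were not used beyond the pass call. No doublet caller was run. Counts were summed per well over passing cells (at least 5 per well), with the design table giving each well's treatment.

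Genes were fitted with edgeR 4.0.16 (quasi-likelihood test, TMM factors, R 4.3.3) over all 142 wells, with Wnt, RA, Tgfb, Bmp and Fgf as terms within each start and control wells as their own level; p-values were Benjamini-Hochberg adjusted over 8791 genes and called under 0.05. DESeq2 1.42.0 and limma 3.58.1 were alternatives. Errors are SE on the log2 scale. The fitting script was tested on simulated data. The members and gene lists were chosen with earlier results of these data known. Named genes were, at a mean of at least 10 CPM, the 8 largest called differences each way and the 2 largest each way per pattern of effects; up to 3 members per list with the smallest adjusted p; Axin2, Lef1, Nkd1, Sp5, T and Cdx2; and 2 genes per product test with calls. Other genes were named after their values were seen, and 1 gene called for the dependence on RA is not reported here. The fit of the germ layer experiment alone was added after the mixed values were seen. Positions are from GENCODE vM21 and promoter sequences from RefSeq (GRCm38.p6). The germ layer and mesendoderm experiments shared 151 cell barcodes.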

Additional observations from a re-analysis of the deposited data

Results flagged for a closer look

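The Wnt response differed between the starts for 683 genes by the test of the difference itself. Among the named genes, some had effects, fitted across the RA settings, that were called in opposite directions. Hoxb5 (4.10), Hoxb6 (3.45), Hoxb8 (3.31), Hoxb4 (2.76), Hoxb2 (2.58) and Hoxb1 (2.41) fell from the undirected and rose from the mesendoderm start. S100a13 (-1.50), Sox15 (-1.43), Vim (-1.40), Eomes (-1.99), Zfp42 (-0.99) and Nanog (-0.91) did the reverse. These are log2 differences, mesendoderm less undirected. Split by RA, the opposite directions did not hold at each setting. The undirected fall of Hoxb1 and Hoxb2 was not called with RA minus, nor was their mesendoderm rise with RA plus. Undirected Hoxb4 rose with RA minus. The difference itself changed with RA for Hoxb4 (3.09), Rock2 (1.35) and Cdx1 (-1.48).

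Of 184 groups of 8 control wells checked, 19 had 1 well far from the rest, where chance flags about 1 in 20 groups. In mesendoderm control wells the highest well stood apart for Sox15 (30.3 CPM), Tdh (251 CPM), Mylpf (576 CPM), Meis2 (49.0 CPM), Notum (19.9 CPM), Lrp6 (30.6 CPM), Nkx1-2 (25.9 CPM), Nes (18.5 CPM), Tfap2c (96.4 CPM) and Irf1 (19.4 CPM). In undirected control wells it did for Amot (52.4 CPM), Wnt8a (8.71 CPM), Greb1 (26.8 CPM), Bmp4 (13.3 CPM), Pecam1 (27.9 CPM), Zeb1 (19.9 CPM), Cdkn1a (239 CPM) and Axin2 (35.5 CPM), and the lowest well did for Cited1 (9.38 CPM).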

How the results depend on the processing

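The number of genes with a called difference was 683, and stayed within 1.5 times of that with DESeq2 (739), library totals (657), no filter on low counts (908), control wells left out (569), products of Wnt with the other pathways (636), replicate wells summed (621) and limma with voom weights (706). It was 333 with at least 20 cells per well, 174 with wells thinned to at most 214106 UMIs (smaller wells were kept as they were), 240 in wells with internal barcodelets only, 72 in wells with external barcodelets as well, 213 in RA plus wells and 239 in RA minus wells; these use fewer wells or UMIs. Calls for the Wnt effect, Undirected start, were 1743 with at least 20 cells, 1594 thinned, 1748 with external barcodelets and 1810 in RA minus wells, and for the Wnt effect, Mesendoderm start, 1336 thinned and 1803 with external barcodelets. Without a filter the dependence on RA, Tgfb, Bmp and Fgf was called for 42, 16, 29 and 21 genes, and the Wnt effect differing between separate experiments gave 811 calls against 290. The design table gives no replicate number, so pairing by number was not run. With wells with or without external barcodelets as a replicate block, chosen after seeing the data, 719 genes were called.

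Of 1251 values of named genes, 1029 kept direction and call, 183 lost the call, 23 gained it and 16 changed sign. The sign changes, whose cause was not tested, were with at least 20 cells Ctnnb1 (-0.000895), Lin28a (-0.0394) and Pfkp (0.0154); the difference of Lef1 (-0.0185 with at least 20 cells and -0.13 with products); thinned Sesn2 (0.0313); with external barcodelets Etv4 (0.0143), Axin2 (-0.0428) and Lef1 (-0.032); in RA plus wells Sfrp1 (-0.12) and Lef1 (-0.78); and in RA minus wells Hoxb4 (-0.13), Runx1 (-0.23), Etv4 (0.30), Axin2 (-0.071) and Rock2 (-0.47). Undirected Wnt plus wells held the fewest cells, which limits the precision of that start.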
